A study of Mus musculus and Canis lupus familiaris and Equus caballus with 9 samples.

Results

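The human NRSF peak list is a set of genomic intervals deposited beside peak lists from 3 other species, and it belongs to no sample of the series. Its members here were all of its intervals on the numbered chromosomes, 5147 of the 5260 lines. The other 113 lines lie on the sex chromosomes and were left out. All 4 lists together hold 12075 peaks.

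The series mapped NRSF by ChIP-seq, the sequencing of DNA recovered with an antibody to a chromatin protein, in 3 established lines. They were RAW264.7 mouse macrophages (strain label RAW264.7-BALB/c), ML2 dog myelomonocytic leukemia cells and E.Derm (NBL-6) quarterhorse skin fibroblasts. Each line gave 2 immunoprecipitated samples, made with the NRSF monoclonal antibody 12C11-1B11, and 1 input DNA sample, 9 in all. The labels name no treatment and no altered allele for any of them. None of the 9 is human. For the human list, the sources used here give neither the cells nor the antibody, the number of libraries or the threshold.

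NRSF (REST) represses transcription and binds DNA through zinc fingers. It recognises a long DNA element, the NRSE or RE1, which has a left and a right part, and it recruits corepressor complexes with histone deacetylases and demethylases. It is best known for keeping neuronal genes silent in cells that are not neurons. A peak in such a list is an interval where immunoprecipitated fragments piled up, and it can hold one element, several or none.

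The form of the human list was the same as that of the other lists, apart from a small difference in the last digits of the starts. A line consisted of 3 columns for chromosome, start and end, and carried neither a score nor a name or strand. Every peak was 400 bp wide, so the 5147 autosomal peaks covered 2059 kb. Every start was a multiple of 5, and 79.1% of the human starts ended in the digit 5 (95% interval 78.0 to 80.2%). That share was 80.5% in mouse (78.8 to 82.1%), 82.1% in dog (80.4 to 83.7%) and 83.0% in horse (81.4 to 84.6%). The human interval overlapped that of mouse but not those of dog and horse. In all 4 lists the chromosomes stood in text order (1, 10, 11), positions ascended within each chromosome, and no line was repeated. The order of the lines therefore carried no rank of peak strength. The smallest distance between neighbouring starts was 455 bp in human, 455 bp in mouse, 460 bp in dog and 470 bp in horse, so no list held a distance under 450 bp.

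The human list differed from the others in its length. It had 2.27 times as many autosomal peaks as the mouse list, with 2272, against 2223 in dog and 2129 in horse. Between the first and the last peak of each autosome it held 1.85 peaks per Mb. The same density was 0.971 in mouse, 1.06 in dog and 0.976 in horse. There was 1 list per species, no read count and no value per replicate. All intervals given here therefore cover counting error only, the depth is unknown, and a difference in threshold, depth or cells between lists cannot be told apart from a difference between species.

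Human peaks were spread unevenly over the 22 autosomes. Chromosome 19, known as a gene-rich chromosome with large families of zinc-finger genes, had the highest density, followed by chromosomes 22 and 20. Chromosome 4 had the lowest, after chromosomes 13 and 21. Densities were counted from the first to the last peak, because no chromosome length for the human build was used here. The highest and the lowest density differed 4.97-fold. The order at the top depended on what was counted. Without the peaks in dense bins (bins of 1 Mb with 10 or more peaks), chromosome 22 stood above chromosome 19, at 2.25 against 1.96 times its share of length. Chromosome 22 had no dense bin and kept all its peaks, so its ratio rose only because the total fell. Chromosome 19 lost 28.8% of its peaks. With the length taken from position 0, chromosome 22 fell to 1.46 times its share, below chromosomes 20 (1.90), 17 (1.55) and 16 (1.54).

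Chromosome 19 held 274 peaks in 58.6 Mb, or 4.67 per Mb (95% exact Poisson interval 4.14 to 5.26). Chromosome 22 held 133 in 34.9 Mb, or 3.81 per Mb (3.19 to 4.51), and chromosome 20 held 214 in 62.3 Mb, or 3.43 per Mb (2.99 to 3.93). These 3 values all lay above the intervals of chromosomes 17 and 16, which stood at 2.83 and 2.77 per Mb. At the other end, chromosome 4 held 179 peaks in 190 Mb, or 0.940 per Mb (0.807 to 1.09). Chromosome 13 had 1.19 per Mb (0.978 to 1.43) and chromosome 21 had 1.25 (0.919 to 1.66), the latter from only 47 peaks.

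**Figure D1:**
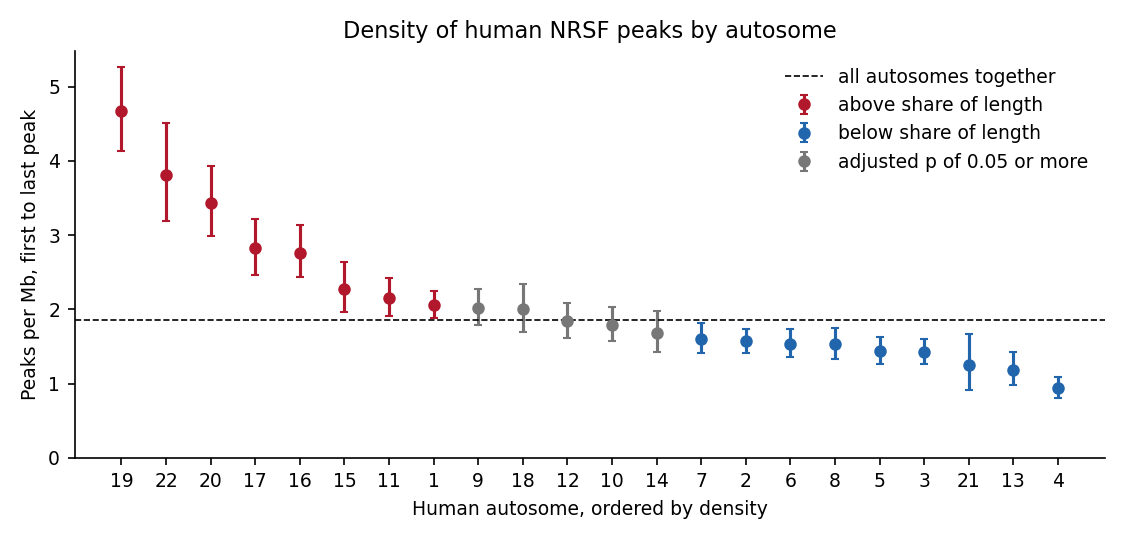
Peaks per Mb between the first and the last peak (y axis) for the 22 human autosomes in order of density (x axis). Points are densities, bars are 95% exact Poisson intervals, colours show the call against the share of length, and the dashed line marks all autosomes together at 1.85 per Mb; chromosome 19 stands highest at 4.67 and chromosome 4 lowest at 0.940.

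The order of density had no sharp step. In the plot of density by autosome, the intervals of each chromosome and its neighbour in the order overlapped in all 21 neighbouring pairs. Against its share of the covered length, a chromosome was tested by a two-sided exact binomial test with Benjamini-Hochberg adjustment over the 22 autosomes. By this test 8 autosomes held more peaks than their share (36.4% of those tested) and 9 held fewer (40.9%). Chromosome 19 held 2.52 times its share (adjusted exact p = 3.36e-40), chromosome 22 2.05 times (adjusted exact p = 3.75e-13) and chromosome 20 1.85 times (adjusted exact p = 6.66e-16). Chromosome 4 held 0.507 times its share (adjusted exact p = 8.88e-25), chromosome 13 0.640 times (8.45e-07) and chromosome 21 0.674 times (0.0077). Neighbouring peaks are not independent, so these p-values are too small. The calls for chromosomes 16, 17, 19, 20 and 22 above and for 3, 4, 5, 8 and 13 below held with each of 2 other lengths, with peaks within 10 kb joined and without the peaks in dense bins. Chromosome 21 did not pass without the peaks in dense bins (0.738 times, adjusted exact p = 0.0677). Without those peaks 5 autosomes in place of 9 were below their share. Chromosomes 6, 7 and 21 were among those that lost the call, yet they held no dense bin. Their counts did not change, and their ratios rose only because the total fell from 5147 to 4701 peaks. These losses therefore say nothing about dense bins on those chromosomes.

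Long peak-free stretches were common. On the autosomes 797 stretches between neighbouring peaks were longer than 1 Mb and together took up 63.2% of the covered length. There were 39 longer than 5 Mb and 5 longer than 10 Mb. The numbers that random placement at the same density would give were not computed. These counts alone therefore do not show unevenness. In the human list, 947 of 2793 bins of 1 Mb held no peak (33.9%). The share was lowest on chromosome 22, with 2 of 36 bins empty, and highest on chromosome 21, with 19 of 39. On chromosome 4, 92 of 191 bins were empty (48.2%).

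The 5 longest stretches without a peak lay on chromosomes 1, 9, 16, 1 and 4. The longest, 25.1 Mb on chromosome 1, ran from 119471980 to 144594155 (hg19). The next was 19.1 Mb on chromosome 9, from 47047675 to 66107875, and the third was 16.4 Mb on chromosome 16, from 31468835 to 47821610. Chromosomes 1, 9 and 16 are known for large blocks of heterochromatin beside their centromeres, where short reads are hard to place. Whether these stretches fall on assembly gaps was not examined, since no human genome was used here. The other stretches were 11.5 Mb from 77529215 to 89074730 on chromosome 1 and 11.0 Mb from 130086065 to 141077665 on chromosome 4. On chromosomes 13, 14, 15, 21 and 22, whose short arms are known to carry mostly repeats, the first peak lay at 19315845, 19514235, 21193455, 9714565 and 16114780. On the other autosomes the first peak started between 57105 and 2916395.

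Along the chromosomes, peaks were more frequent towards both ends of the covered length. When the covered length of each autosome was divided into 10 equal parts, the last part held 15.2% of the peaks (95% interval 14.2 to 16.2%) and the first part 13.1% (12.2 to 14.1%). The middle parts, numbers 4 to 6, held 7.67%, 7.60% and 7.91%. An even spread would put 10% in each. Without the peaks in dense bins the last part held 13.9% and the first 13.3%.

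**Figure D2:**
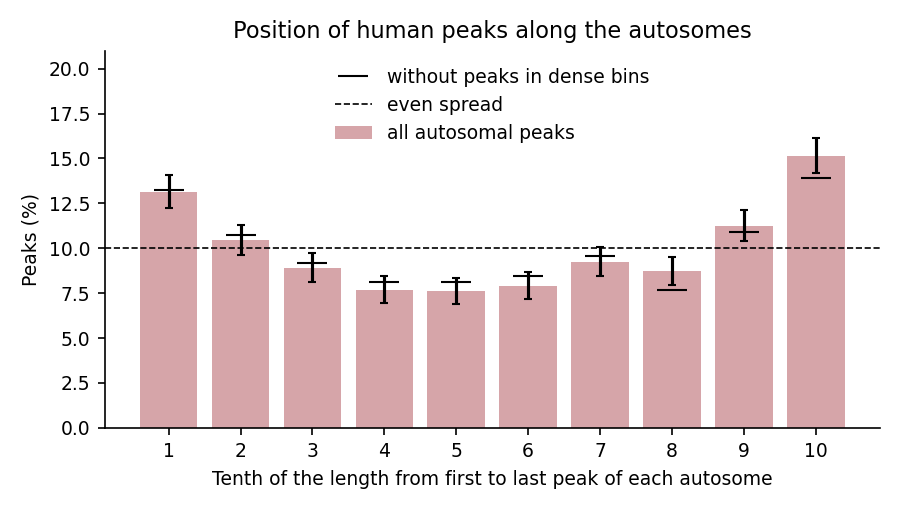
Share of the 5147 human autosomal peaks (y axis, %) in each of 10 equal parts of the length from first to last peak (x axis), summed over the 22 autosomes. Bars are shares with 95% exact binomial intervals, black dashes are shares without the peaks in dense bins, and the dashed line marks 10%; the bars fall from 13.1% to 7.60% in the middle and rise to 15.2%.

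The last 5 Mb before the last peak held 415 peaks over the 22 autosomes, or 3.77 per Mb, against 1.78 per Mb in the rest. This was 8.06% of the peaks in 3.96% of the length (95% interval of the share 7.33 to 8.84%). Since the length was taken to end at the last peak, 1 peak per chromosome falls there by construction. Without the peaks in dense bins the share was 6.76%. The end held more peaks per Mb than its chromosome as a whole on 20 of 22 autosomes, with the last peak of each counted. On chromosomes 11 and 15 the ratio of end to whole was only 1.02 and 1.05, a margin of less than 1 peak. The ratio was 4.83 on chromosome 8, with 37 peaks in the last 5 Mb, and 3.95 on chromosome 9, with 40. Chromosome 20 had 48 peaks there, 2.79 times its own mean. The 2 exceptions were chromosome 1, with 8 peaks and a ratio of 0.776, and chromosome 6, with 6 peaks and a ratio of 0.780.

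Distances between neighbouring human peaks had 2 separate maxima. Most distances were long, with a median start-to-start distance of 205 kb and a middle range (25th to 75th percentile) of 37.1 to 631 kb over 5125 distances. A smaller number lay below 2 kb. On a log10 scale in steps of 0.25, the step that ends at 1 kb held 357 distances (6.97%). The step from 3.5 to 3.75 held only 62 (1.21%), and the share then rose to 13.1% at its maximum. The other lists also had a maximum in the step that ends at 1 kb, but a smaller one. It held 29 distances in mouse (1.29%), 38 in dog (1.74%) and 31 in horse (1.48%). The median distance was 423 kb in mouse, 447 kb in dog and 373 kb in horse.

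**Figure D3:**
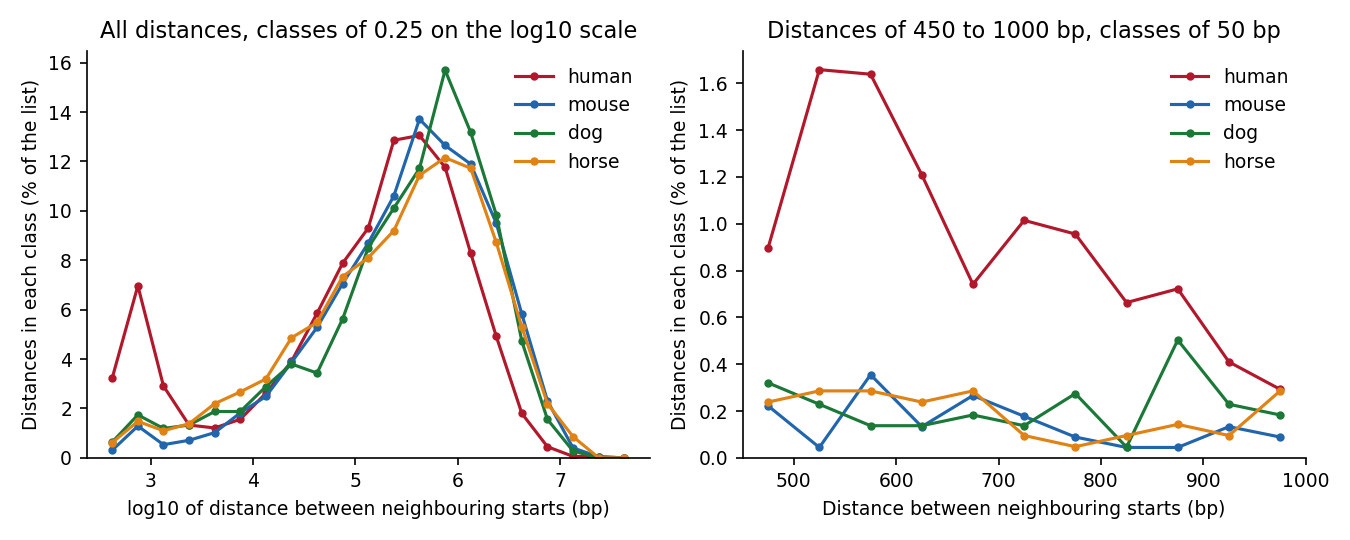
Left, share of the distances between neighbouring starts (y axis, % of each list) by log10 of the distance in bp (x axis) for the human, mouse, dog and horse autosomal lists; right, the same for 450 to 1000 bp in classes of 50 bp. Points are shares. On the left, the human line alone reaches 6.97% in the class that ends at 1 kb. On the right, 1.66% of human distances lie at 500 to 550 bp, which belong to the class below that one.

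At most 2 kb separated 693 of the 5125 human distances (13.5%, 95% exact binomial interval 12.6 to 14.5%). In mouse this held for 50 of 2253 (2.22%, 1.65 to 2.92%), in dog for 84 of 2185 (3.84%, 3.08 to 4.74%) and in horse for 70 of 2098 (3.34%, 2.61 to 4.197%). Two-sided Fisher's exact tests with adjustment over the 3 pairs gave an odds ratio of 6.89 against mouse (95% interval 5.14 to 9.42, adjusted exact p = 7.65e-62). Against dog it was 3.91 (3.09 to 4.99, adjusted exact p = 1.98e-40) and against horse 4.53 (3.52 to 5.91, adjusted exact p = 1.92e-44). These tests compare 4 lists, not 4 species, and count neighbouring distances as independent. Density moved with the result: the human list was denser, and with the distance scaled to 1% of the mean of each chromosome the odds ratios fell to 3.15, 2.08 and 1.82, still past the threshold. Without the peaks in dense bins the human share was 12.2%, against 1.29% in mouse, 2.16% in dog and 2.48% in horse. The odds ratios were then 10.7, 6.32 and 5.49, larger than before because the other lists lost more of their share than the human list.

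The human excess lay at distances under 2 kb and was not found just above them. Of the distances over 2 kb, 189 of 4432 human ones were at most 10 kb (4.26%), compared with 78 of 2203 in mouse (3.54%), 105 of 2101 in dog (4.998%) and 128 of 2028 in horse (6.31%). The odds ratio was 1.21 against mouse (95% interval 0.922 to 1.61, adjusted exact p = 0.18) and 0.847 against dog (0.659 to 1.09, adjusted exact p = 0.18). Against horse it was 0.661 (0.522 to 0.840, adjusted exact p = 0.00185), with the human share the lower. This comparison was chosen after the distances had been seen.

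Close human neighbours were most often 500 to 600 bp apart. This class lies just above the smallest distance in the list, 455 bp, so it cannot be read as a preferred spacing. Of the 693 short distances, 524 were at most 1 kb, 169 lay from 500 to under 600 bp and 46 from 450 to under 500 bp. Their median was 720 bp (25th to 75th percentile 570 to 985 bp). In the mouse list it was 725 bp, in the dog list 895 bp and in the horse list 880 bp. Below 700 bp stood 45.5% of the short human distances (95% interval 41.7 to 49.2%). The same share was 46.0% in mouse (31.8 to 60.7%), 40.0% in horse (28.5 to 52.4%) and 26.2% in dog (17.2 to 36.9%), on 50, 70 and 84 distances. With peaks 400 bp wide, starts 500 to 600 bp apart leave 100 to 200 bp between the intervals, and fragments of 200 to 300 bp were chosen for the libraries of the 3 sequenced species. For the human list no fragment length was found in the labels, and a part of it in these distances was not tested.

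Peaks linked by steps of at most 2 kb formed chains. The human list had 558 chains with 1251 peaks, which is 24.3% of its autosomal peaks (95% interval 23.1 to 25.5%). There were 443 pairs, 99 chains of 3, 14 of 4 and 2 of 6. Chains of more than 2 peaks made up 20.6% of the human chains (17.3 to 24.2%), 14.3% of the 42 mouse chains (5.43 to 28.5%), 17.7% of the 62 dog chains (9.20 to 29.5%) and 4.55% of the 66 horse chains (0.947 to 12.7%). The dog list had the longest chain of all, with 7 peaks. A human chain spanned 1195 bp in the median and 6305 bp at most.

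The chains with the most peaks lay on chromosomes 15 and 16. On chromosome 15, 6 peaks ran from 89902090 to 89908395 (hg19), with start distances of 1935, 875, 985, 485 and 1625 bp. On chromosome 16, 6 peaks ran from 222355 to 227285, with distances of 720, 1210, 470, 1370 and 760 bp. Neither chain had an even step. Among the 14 chains of 4 peaks, the first in chromosome order lay on chromosome 1 at 26796780 to 26799225, on chromosome 2 at 95424985 to 95428705 and on chromosome 4 at 180016365 to 180019305. The chain on chromosome 2 began where a peak-free stretch of 8.41 Mb ended, a place noted after its values were seen.

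The last digit of the start was also counted within chains. Of the 1251 human peaks in chains, 75.2% had a start ending in 5 (95% interval 72.7 to 77.6%), compared with 80.4% (79.1 to 81.6%) of the 3896 other human peaks. The intervals did not overlap in human. In mouse the shares were 82.6% of 92 and 80.4% of 2180, in dog 78.8% of 146 and 82.3% of 2077, and in horse 83.1% of 136 and 83.0% of 1993. In these 3 lists the intervals overlapped. The comparison was made after the data were seen and was not tested further.

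Every human autosome carried close neighbours. The share of distances of at most 2 kb ran from 7.14% on chromosome 13 (95% interval 3.13 to 13.6%) and 7.87% on chromosome 4 to 18.3% on chromosome 20 and 19.8% on chromosome 19 (15.2 to 25.01%). Chromosome 21, with few peaks, had 17.4% with an interval from 7.82 to 31.4%. The lowest human value lay above the overall share of each other list. Single chromosomes of the other lists with more than 20 peaks reached 9.13% in mouse, 10.0% in horse and 19.6% in dog, but their medians were 1.69%, 2.59% and 1.22%, against 13.8% in human. Without chromosome 19 the human share was 13.2%.

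**Figure D4:**
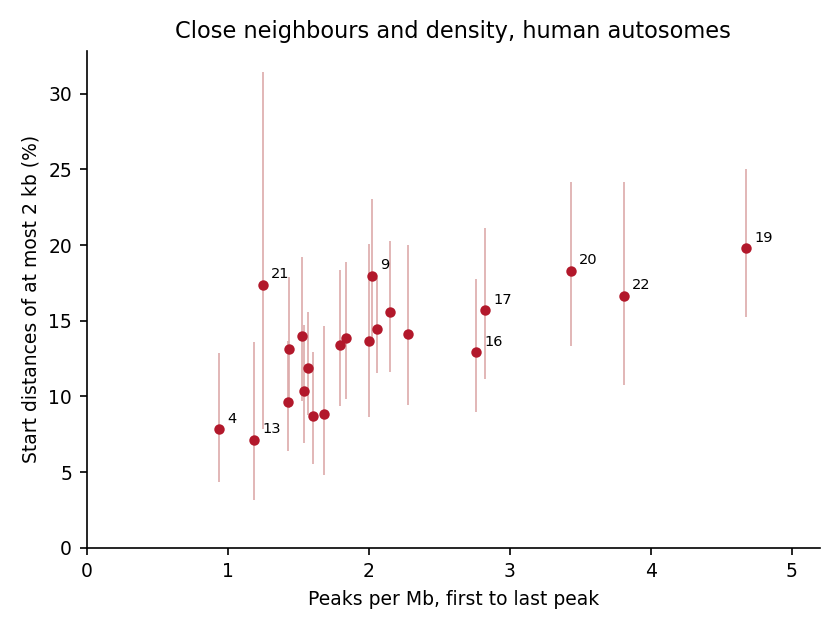
Share of start distances of at most 2 kb (y axis, %) against peaks per Mb (x axis) for the 22 human autosomes; bars are 95% exact binomial intervals and numbers name some chromosomes. Chromosome 19 stands at the upper right with 19.8%, chromosomes 4 and 13 at the lower left with 7.87% and 7.14%, and chromosome 21 apart with 17.4% at low density.

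Denser autosomes had a larger share of close neighbours. Over the 22 autosomes Pearson's r between density and that share was 0.70 and Spearman's rho 0.68. Without the 2 chromosomes farthest from the median density, 19 and 22, r was 0.61. Both measures come from the same positions, so the relation is a description and no p-value is given.

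Dense bins, defined as bins of 1 Mb with 10 or more peak midpoints, numbered 35 on the human autosomes. They held 446 peaks (8.67%, 95% interval 7.91 to 9.47%) in 1.25% of the bins. They lay on 14 autosomes: 5 on chromosome 19, 4 each on chromosomes 1 and 8, and 3 each on chromosomes 5, 11, 12, 16 and 20. Chromosome 22, the second in density, had none, and neither did chromosomes 3, 4, 6, 7, 13, 14 and 21. Of the 35, 10 touched another dense bin, where dense bins were 1.25% of all bins. The number that scattered bins would give was not computed. On chromosome 19, 28.8% of all peaks lay in dense bins.

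The bin with the most peaks was on chromosome 19 from 42 to 43 Mb (hg19), with 21 peaks, whereas the bins on either side held 2 and 3. Next came chromosome 19 from 55 to 56 Mb with 18 peaks, chromosome 1 from 11 to 12 Mb and chromosome 20 from 44 to 45 Mb with 17 each, and chromosome 12 from 113 to 114 Mb and chromosome 19 from 15 to 16 Mb with 16 each. The bins of chromosome 5 from 140 to 141 Mb and of chromosome 20 from 61 to 62 Mb held 15. The list of 10 ended with chromosome 11 from 45 to 46 Mb, with 14, and chromosome 1 from 1 to 2 Mb, with 13. That last place was shared by count with 4 other bins and was decided by position. The bin on chromosome 1 from 11 to 12 Mb stood alone, with 1 peak in the bin before it and 0 in the bin after it.

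**Figure D5:**
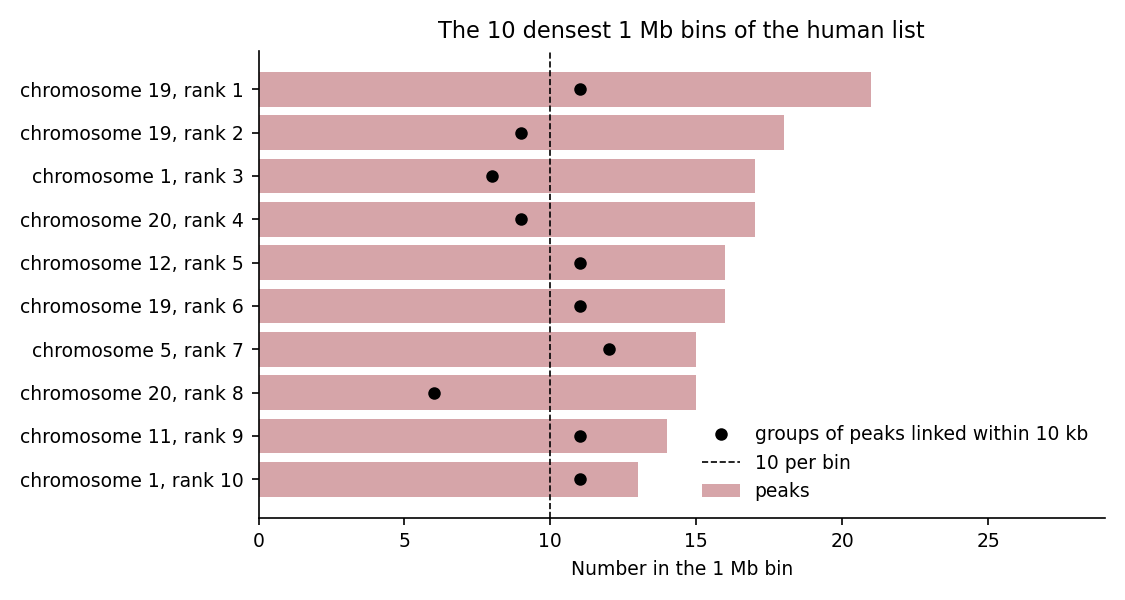
Number of peaks (bars) and of groups of peaks linked within 10 kb (points) in each of the 10 human 1 Mb bins with the most peaks (y axis, by chromosome and rank; x axis, number in the bin). The dashed line marks 10; the first bin holds 21 peaks in 11 groups, and the bin on chromosome 5 holds 15 peaks in 12 groups.

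Dense bins differed in the spacing of their peaks. In the bin on chromosome 20 from 61 to 62 Mb, 15 peaks fell into 6 groups when peaks within 10 kb were joined, and the median distance was 3.12 kb. On chromosome 19 from 55 to 56 Mb, 18 peaks fell into 9 groups, with a median distance of 2.82 kb. The bin on chromosome 5 from 140 to 141 Mb was the opposite: its 15 peaks formed 12 groups, the smallest distance was 8055 bp and no pair was within 2 kb. The bins on chromosome 16 from 17 to 18 Mb and from 20 to 21 Mb also had no pair within 2 kb, with 10 peaks in 10 groups each; they were chosen after their values were seen. Within all 35 bins, 120 of 411 distances were at most 2 kb (29.2%, 95% interval 24.8 to 33.9%), against 13.5% of all human distances. The bins were chosen for many peaks and only distances inside a bin were counted. Both favour short distances, so the higher share is no finding about dense bins. When peaks within 10 kb were joined, 11 of the 35 bins still held 10 or more groups.

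The number of peaks per 1 Mb bin varied more than a constant rate would give, in human as in the other lists. The variance divided by the mean, which is 1 for a constant rate, was 2.88 in human, 2.58 in mouse, 2.20 in dog and 2.89 in horse. The mean per bin was 1.84 in human, 0.963 in mouse, 1.04 in dog and 0.963 in horse. Where the rate varies this index rises with the mean, so it does not rank the lists by unevenness. When peaks within 10 kb were joined, the index fell to 1.94 in human, 1.92 in mouse, 1.61 in dog and 2.13 in horse. Joining left 4265 groups from the 5147 human peaks, or 1.21 peaks per group. The mouse list had 1.06, the dog list 1.09 and the horse list 1.10. Dense bins numbered 5 in mouse, 8 in dog and 13 in horse, with 3.83%, 4.59% and 7.66% of the autosomal peaks. The bin count depends on the length of the list and was not tested between lists.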

How the data were processed

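The deposited files are 4 lists of NRSF peaks with positions only. No unit of signal, score or p-value is given, and the human list is tied to no sample. Per the submitters' processing notes, Bowtie 0.12.8 and MACS 1.4.2 were used and the builds include GRCh37 (hg19), with no role stated for either. The sources used here give neither the threshold nor how libraries were combined. A list called at a looser threshold, or joined from several libraries, would be longer, so list length cannot be read as an amount of binding. Positions may count from 0 or from 1, so each is known to within 1 base.

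Human positions were not assigned to genes, and no sequence was read, since no human genome or annotation was used here. Peaks on numbered chromosomes were kept. Distances were taken between neighbouring starts, and bins of 1 Mb used peak midpoints. Shares carry exact (Clopper-Pearson) and densities exact Poisson 95% intervals. Tests were exact binomial and Fisher's exact, two-sided, with Benjamini-Hochberg adjustment. Only the binomial test was run on simulated data. The simulated peaks were independent, unlike the real ones, so that check does not cover the p-values given here. Regions named were the 3 autosomes highest and the 3 lowest in density, the 10 densest bins, the 5 chains with most peaks and the 5 longest peak-free stretches. The members, this rule and the measures were chosen with earlier results of these data known. Python 3.11.15, scipy 1.17.1, numpy 2.4.6, pandas 2.3.3 and matplotlib 3.10.9 were used.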

Additional observations from a re-analysis of the deposited data

How the results depend on the processing

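No paired analysis was possible because the human list has no samples and each other species has 1 list for both replicates. For the same reason no replicate could be left out, and no stricter threshold could be set without peak scores. The odds ratio for distances of at most 2 kb kept its direction and passed the test against each of the 3 lists under 7 other settings (1, 5 and 10 kb, without chromosome 19, without dense bins, scaled distance, sex chromosomes added). The sets at 5 and 10 kb contain all distances of at most 2 kb, and the set at 1 kb is part of them. These settings are therefore no separate support. The odds ratio did not both keep its direction and pass in the 2 comparisons chosen after seeing the data. For distances of 2 to 10 kb it was 1.21 (mouse), 0.847 (dog) and 0.661 (horse). With groups within 2 kb counted once and the distance scaled to 1% of the mean it was 0.651, 0.511 and 0.363. This last comparison is not like for like, since joining at a fixed 2 kb leaves the denser human list a narrower window relative to its mean. How much of the low ratios this makes up was not tested, and no conclusion is drawn from them. The autosomes above their share numbered 6 to 9 over the 4 alternatives for density (length without the longest peak-free stretch, length from position 0, peaks within 10 kb joined, no peaks from dense bins), and those below numbered 5 in the last of these. Chromosomes 1, 2, 6, 7, 11, 15 and 21 each lost their call in at least 1 of them. Chromosome 21 lost it only without the peaks in dense bins, although it had no such peaks itself. Chromosome 9 gained a call above its share without the longest stretch (1.19 times, adjusted exact p = 0.00666), and chromosome 14 one below it with the length from position 0 (0.771 times, adjusted exact p = 0.00184). With that length chromosome 15 stood at 1.01 times its share. The dense bins depended on their definition: 168 bins of 500 kb with 5 or more peaks (20.8% of peaks), 7 of 2 Mb with 20 or more (3.11%), 79 of 1 Mb with 8 or more (15.9%), 8 with 15 or more (2.62%), and 11 with peaks within 10 kb joined (2.79% of groups). Bins shifted by 500 kb gave 47, with 10.7% of peaks. With neither scores nor read counts, weak peaks cannot be told from strong ones.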
